A study of Mus musculus with 30 samples.

Results

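The Fc gamma receptors are the receptors through which cells of the myeloid lineage, microglia included, bind the constant part of IgG. The 5 genes described here are the 3 receptor genes Fcgr1, Fcgr3 and Fcgr2b and the 2 adaptor genes Fcer1g and Tyrobp. They were chosen by name, and each has 1 row among the 16995 genes of the deposited expression table. RNA was sequenced from the intermediate laminae of the cervical cord, on the side denervated by the stroke, in adult female C57BL/6 mice. Stroked mice had received a photothrombotic lesion of the right sensorimotor cortex and were grouped by the day of tissue collection, namely day 4, 7, 14, 28 or 42 post injury (dpi), and sham-operated mice formed the group labelled Ctrl. The labels give no genotype besides the strain. Values were available for 29 of the 30 labelled animals, with 4 animals at 4 dpi and 5 in each other group. Animal A9-3 at 4 dpi had no values and was not analysed here. The paper reports that a sample of that group was excluded as an outlier when differential expression was tested, without naming the animal. The means, spread and tests at 4 dpi below therefore describe only the 4 animals with values. The tissue was bulk cord trimmed by hand, so fewer cells of a type and less RNA per cell cannot be told apart.

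Fc gamma receptors come in activating and inhibitory forms. Fcgr1 encodes the high-affinity activating receptor for IgG, and Fcgr3 encodes a low-affinity activating receptor that binds immune complexes. Neither carries a signalling motif of its own in the mouse, and both are held at the membrane by the Fc receptor gamma chain, the product of Fcer1g. The gamma chain holds an immunoreceptor tyrosine-based activation motif (ITAM), which recruits the kinase Syk after phosphorylation by Src family kinases. Tyrobp, also named DAP12, is a second ITAM adaptor and serves receptors such as Trem2. Fcgr2b encodes the inhibitory receptor, whose inhibitory motif (ITIM) recruits the phosphatase SHIP1. In the healthy central nervous system these genes are expressed mainly by microglia.

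Fcgr2b, Fcgr3 and Fcer1g lie close together on the minus strand of chromosome 1 in mm10. Fcgr2b (ENSMUSG00000026656) spans chr1:170958617-170976547, Fcgr3 (ENSMUSG00000059498) spans chr1:171051174-171064935 and Fcer1g (ENSMUSG00000058715) spans chr1:171229572-171234365. Fcgr1 (ENSMUSG00000015947) lies on the minus strand at chr3:96282909-96293969, and Tyrobp (ENSMUSG00000030579) on the plus strand at chr7:30413760-30417585. RefSeq promoter windows on GRCm38.p6 were found for 4 of the 5 genes, and none was found for Tyrobp. The 250 bases before each start were searched for the PU box, the binding word of the myeloid factor PU.1 (GAGGAA on either strand, so also TTCCTC), and for the interferon gamma activated site (GAS, TTCNNNGAA, which reads the same on both strands). The 120 bases before the start of the 2 activating receptors are printed because both hold a PU box and only Fcgr1 holds a GAS word. They are given 5′ to 3′ on the minus strand, for Fcgr1 from chr3:96293970-96294089 and for Fcgr3 from chr1:171059404-171059523, with the matched words in capitals.
Fcgr1: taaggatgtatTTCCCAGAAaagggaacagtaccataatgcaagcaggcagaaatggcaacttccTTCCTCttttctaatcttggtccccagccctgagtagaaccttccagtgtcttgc
Fcgr3: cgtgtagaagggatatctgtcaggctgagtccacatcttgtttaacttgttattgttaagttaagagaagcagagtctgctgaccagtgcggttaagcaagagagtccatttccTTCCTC

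In Fcgr1 the GAS word began 109 bases and the PU box 55 bases before the start. Fcgr3 has 2 RefSeq windows with starts close to each other, and in the one printed the PU box ended directly before the start. The stretch printed lies inside the Fcgr3 span given above, so this RefSeq start is internal to that span. No PU box and no GAS word was found in the windows of Fcgr2b and Fcer1g. The RefSeq start of Fcgr2b and the 120 bases before it also lie inside the span given for that gene. Of all 32851 promoter windows, 23.3% held a PU box and 7.02% a GAS word. A match describes letters and not a bound site.

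Values below are the deposited normalised CPM, a measure of read abundance normalised with edgeR, and their sum differs between animals. Fold changes are differences of log2(value + 0.5) against the sham group from a limma fit over all 29 animals. A gene was called where the adjusted p over all genes was under 0.05 and the fold change was above 1.5.

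Fcgr3, the low-affinity activating receptor, was the member with the largest difference from sham. It was higher at 4 dpi in every stroke animal, was nearer to sham at 7 and 14 dpi and matched the sham mean at 28 dpi. Sham-operated animals had 2.0, 2.2, 2.1, 2.6 and 3.3 CPM. At 4 dpi the 4 animals had 6.2, 8.6, 4.8 and 7.6 CPM. The lowest animal at 4 dpi lay above the highest sham animal. The mean was 6.80 ± 1.66 CPM (SD, n = 4) at 4 dpi and 2.44 ± 0.532 CPM (SD, n = 5) in sham animals. Fcgr3 rose by 1.30 on the log2 scale (SE 0.198, adjusted p = 0.00473), a 2.46-fold difference on that scale. An exact two-sided permutation test gave p = 0.0159, the smallest value that 4 against 5 animals can give.

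At later times the Fcgr3 values moved towards those of sham animals. At 7 dpi they were 3.0, 5.8, 2.7, 5.6 and 3.6 CPM, and 3 of the 5 animals lay above all sham animals. At 14 dpi they were 3.4, 3.4, 4.2, 4.5 and 3.8 CPM, again with all 5 animals above the sham group. The spread at 14 dpi was the smallest of the 6 groups for this gene relative to its mean (CV 12.6%, against 35.3% at 7 dpi). At 28 dpi the animals had 3.2, 2.3, 3.2, 1.5 and 2.2 CPM, and at 42 dpi 3.1, 3.7, 3.1, 3.2 and 2.5 CPM. At 28 dpi no animal exceeded the sham group and 1 lay below it, and at 42 dpi 1 animal exceeded it. In order of time, from 7 to 42 dpi, the log2 fold changes were 0.62, 0.58, 0.00 and 0.31, each with an SE of 0.187. Their adjusted p-values were 0.692, 0.381, 0.999 and 0.465, so none was called.

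**Figure D1:**
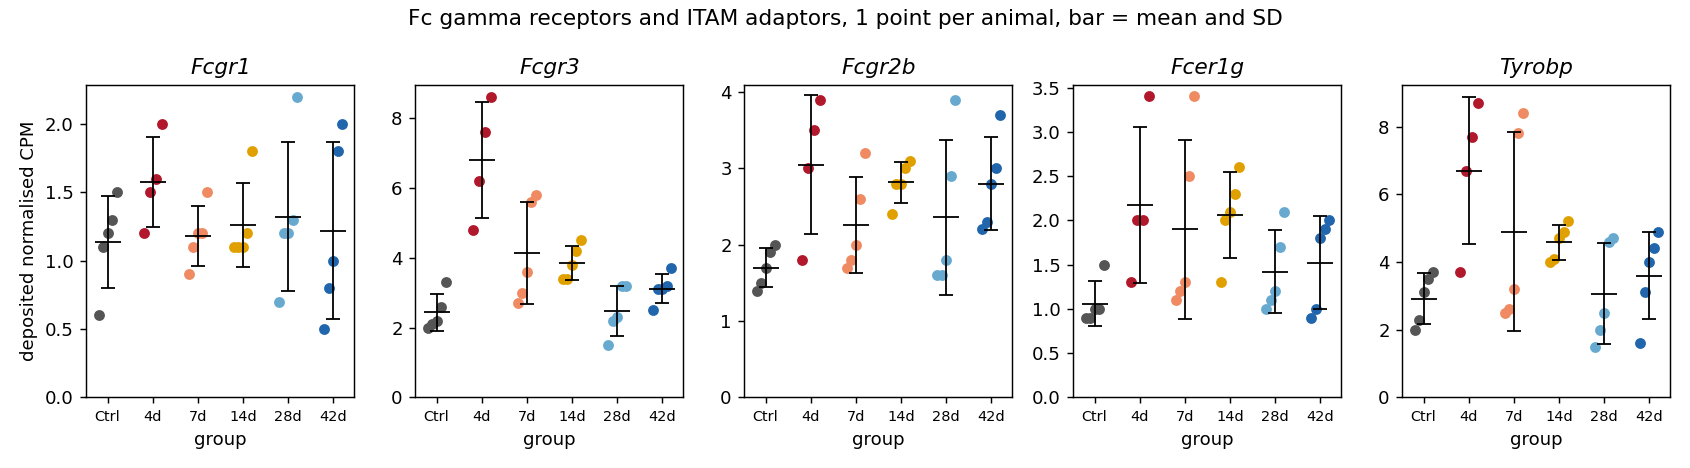
Deposited normalised CPM (y axis, from 0) of the 5 genes in each of the 29 animals by group (x axis), with 1 point per animal and bars for the mean and SD. The 4 Fcgr3 points at 4 dpi lie between 4.8 and 8.6, above all sham points (2.0 to 3.3), and the Fcgr1 groups overlap.

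Fcgr1, the high-affinity activating receptor, showed no difference from sham that passed the test at any time point. Sham animals had 1.1, 0.6, 1.3, 1.5 and 1.2 CPM, and the 4 dpi animals had 1.5, 1.6, 1.2 and 2.0 CPM. The means were 1.14 ± 0.336 CPM (SD, n = 5) and 1.58 ± 0.330 CPM (SD, n = 4). The ranges overlapped, and the log2 fold change was 0.35 (SE 0.232, adjusted p = 1.000). At the later time points the fold changes lay between 0.01 at 42 dpi and 0.13 at 28 dpi. The widest spread was at 42 dpi, where values ran from 0.5 to 2.0 CPM around a median of 1.0 CPM. At this level the rounding of the table to 0.1 CPM is a sizeable step.

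Fcgr2b, the inhibitory receptor, was higher than sham at 4, 14 and 42 dpi before adjustment over all genes, and it passed the adjusted test at no time. Sham animals had 1.7, 1.9, 2.0, 1.5 and 1.4 CPM, with a mean of 1.70 ± 0.255 CPM (SD, n = 5). At 4 dpi the values were 3.5, 3.9, 3.0 and 1.8 CPM. Of these, 3 lay above the sham group and 1 lay within it. At 7 dpi the values were 2.6, 3.2, 2.0, 1.7 and 1.8 CPM, with 2 animals above all sham animals. At 14 dpi they were 2.8, 3.0, 2.4, 2.8 and 3.1 CPM, all above the sham group, with a mean of 2.82 ± 0.268 CPM (SD, n = 5). At 28 dpi they were 3.9, 1.6, 2.9, 1.6 and 1.8 CPM, and at 42 dpi 2.2, 3.0, 3.7, 2.3 and 2.8 CPM. All 5 animals at 42 dpi exceeded the sham group, while only 2 did at 28 dpi.

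In order of time the log2 fold changes of Fcgr2b were 0.66, 0.31, 0.60, 0.32 and 0.57, with an SE of 0.205 at 4 dpi and 0.193 later. The adjusted p-values were 0.372, 0.884, 0.381, 0.223 and 0.157. The exact permutation p was 0.0476 at 4 dpi and 0.00794 at both 14 and 42 dpi, the last being the smallest that 5 against 5 animals allow. These exact p-values were not adjusted for the 25 comparisons of a member with sham.

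The ratio of Fcgr3 to Fcgr2b values sets the activating beside the inhibitory low-affinity receptor within an animal, and only its differences between animals are read. In sham animals it ran from 1.05 to 2.36 with a median of 1.18. At 4 dpi the ratio was 1.77, 2.21, 1.60 and 4.22, and at 7 dpi it ran from 1.15 to 3.29 with a median of 1.81. At 14 dpi it ran from 1.13 to 1.75 with a median of 1.23, at 28 dpi from 0.821 to 1.44, and at 42 dpi from 0.838 to 1.41. The range at 4 dpi lay above those at 28 and 42 dpi without overlap, the 14 dpi range overlapped all of these, and all 5 stroke groups overlapped the sham group. No test was run on this ratio, which was formed after the values were seen.

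Fcer1g, the gamma chain, was higher than sham at 4, 7 and 14 dpi before adjustment and passed the adjusted test at no time. Sham animals had 1.0, 0.9, 1.0, 0.9 and 1.5 CPM. The values at 4 dpi were 2.0, 3.4, 1.3 and 2.0 CPM, with 3 of 4 animals above the sham group. At 7 dpi they were 1.1, 3.4, 1.3, 2.5 and 1.2 CPM. This group fell into 2 animals well above the sham range and 3 within it. At 14 dpi the values were 2.3, 2.1, 2.0, 2.6 and 1.3 CPM, with 4 of 5 animals above the sham group. At 28 dpi they were 1.7, 1.0, 2.1, 1.2 and 1.1 CPM, and at 42 dpi 1.8, 1.0, 1.9, 2.0 and 0.9 CPM. Both late groups overlapped the sham group.

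In order of time the log2 fold changes of Fcer1g were 0.74, 0.54, 0.71, 0.28 and 0.34, with an SE of 0.251 at 4 dpi and 0.237 later. The adjusted p-values were 0.521, 0.840, 0.383, 0.395 and 0.533. Exact permutation tests gave p = 0.0317 at 4 dpi, 0.0794 at 7 dpi and 0.0159 at 14 dpi.

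Tyrobp, the DAP12 adaptor, had the second largest fold change of the 5 genes at 4 dpi but a wide spread. Sham animals had 2.0, 2.3, 3.5, 3.1 and 3.7 CPM, and animals at 4 dpi had 6.7, 8.7, 3.7 and 7.7 CPM. In this group 3 animals lay far above the sham group, and animal A9-2 equalled the highest sham animal at 3.7 CPM. The means were 6.70 ± 2.16 CPM (SD, n = 4) and 2.92 ± 0.743 CPM (SD, n = 5). The log2 fold change was 1.04 (SE 0.319, adjusted p = 0.350), and the exact permutation p was 0.0317. At 7 dpi the values were 3.2, 7.8, 2.6, 8.4 and 2.5 CPM, with the same 2 animals high as for Fcer1g, and the fold change was 0.52 (SE 0.300). At 14 dpi they were 4.7, 4.9, 4.1, 5.2 and 4.0 CPM, so all 5 exceeded the sham group. The fold change at 14 dpi was 0.59 (SE 0.300, adjusted p = 0.440, exact permutation p = 0.00794). At 28 dpi the values were 4.6, 2.5, 4.7, 2.0 and 1.5 CPM, and at 42 dpi 4.9, 3.1, 4.4, 4.0 and 1.6 CPM. Both groups reached below and above the sham range.

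**Figure D2:**
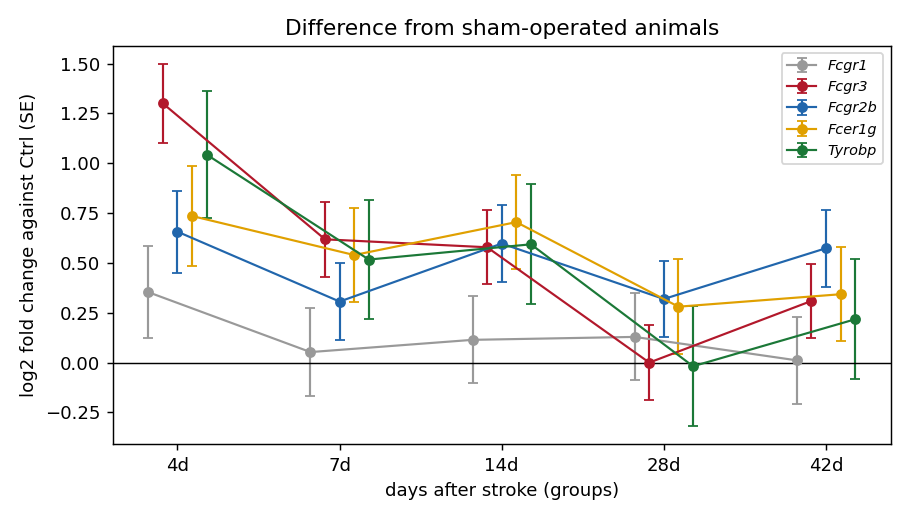
Log2 fold change against the sham group (y axis) of the 5 genes in each stroke group (x axis), with bars for the SE of the fit. Fcgr3 starts at 1.30 and Tyrobp at 1.04 at 4 dpi, both are near 0 at 28 dpi, and Fcgr2b is at 0.57 at 42 dpi.

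Over the 5 genes, 1 was called at 4 dpi, where 0.0941% of all genes tested were called. None was called at 7, 14, 28 or 42 dpi, where the share of all genes was 0.0294%, 0.00588%, 4.64% and 0.0235%. At an unadjusted p under 0.05 and higher than sham, the 5 time points in order had 4, 2, 3, 0 and 1 members. The shares of all genes at that limit were 2.78%, 2.22%, 6.25%, 18.3% and 8.4%. Every stroke animal lay above every sham animal for Fcgr3 at 4 dpi, for the 3 members Fcgr2b, Fcgr3 and Tyrobp at 14 dpi, for Fcgr2b at 42 dpi, and for none at 7 and 28 dpi. The shares of all genes without such overlap were, in order of time, 1.09%, 0.388%, 1.11%, 6.15% and 2.21%. The median log2 fold change of the 5 genes was, in the same order, 0.74, 0.52, 0.59, 0.13 and 0.31. Over all genes tested the median stayed between -0.01 and 0.01.

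The F test for any difference between the 6 groups, which called 31.6% of all genes, called Fcgr3 (adjusted p = 0.000336). Tyrobp (adjusted p = 0.0527), Fcgr2b (0.0593) and Fcer1g (0.0991) did not pass, nor did Fcgr1 (0.771). This count of 1 member became 2 or 3 in 11 of the 29 fits that left out 1 animal, with 3 without A7-3 at 7 dpi or without A3-1 or A4-1 at 28 dpi, and it was 3 with quantile normalization or with the replicate block. Between neighbouring time points no member was called at 7 against 4 dpi, 14 against 7 dpi, 28 against 14 dpi or 42 against 28 dpi. The shares of all genes called in these steps were 0%, 0%, 11.8% and 0.224%. The nearest to a call was Fcgr3 from 14 to 28 dpi, with a log2 difference of -0.58 (SE 0.187, adjusted p = 0.0134), just short of the fold limit.

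Against the 4 dpi group, 2 members were lower at 28 dpi and 1 at 42 dpi. These comparisons were added after the values were seen. Fcgr3 fell by 1.30 from 4 to 28 dpi on the log2 scale (SE 0.198, adjusted p = 0.00140) and Tyrobp fell by 1.06 (SE 0.319, adjusted p = 0.0226), where 4.34% of all genes were called. From 4 to 42 dpi Fcgr3 fell by 0.99 (SE 0.198, adjusted p = 0.0225), where 0.0941% of all genes were called. Fcgr2b was not called in either comparison, with a log2 difference of -0.08 (SE 0.205, adjusted p = 0.892) from 4 to 42 dpi. With the level of the ribosomal RNA gene Rn18s-rs5 as a covariate, the log2 differences were -1.16 for Fcgr3 (adjusted p = 0.105) and -0.84 for Tyrobp (adjusted p = 0.276) between 28 and 4 dpi, and -0.87 for Fcgr3 (adjusted p = 0.275) between 42 and 4 dpi, so all 3 calls were lost. The call of Tyrobp at 28 dpi was also lost without A10-1, A10-4, A9-4, A3-3, A4-3 or A4-4 (adjusted p up to 0.0744) and in a fit of only the 2 groups. The call of Fcgr3 at 42 dpi was also lost without A10-1, A10-4, A9-4, A1-1, A1-4 or A3-4 (adjusted p up to 0.142). Rn18s-rs5 ran from 18295 to 114026 CPM at 4 dpi and from 44755 to 779160 CPM at 28 dpi, and its part in these differences was not tested. The 4 dpi rise of Fcgr3 kept an adjusted p of 0.00600 with the same covariate.

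The order of the group means on the log2 scale was 4, 7, 14, 42, 28 dpi and sham for Fcgr3. Only the steps from 4 to 7 dpi and from 14 to 42 dpi were larger than the larger SD of the neighbours. For Fcgr2b the order was 4, 14, 42, 28, 7 dpi and sham, and for Fcer1g it was 4, 14, 7, 42, 28 dpi and sham. For Tyrobp it was 4, 14, 7, 42 dpi, sham and 28 dpi. No neighbours in these 3 orders, or in that of Fcgr1, differed by more than their spread.

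The ratio above is of values not divided by length, so its size does not compare the abundance of both receptors. For that, levels were taken per length, as CPM divided by the length in kilobases of the principal GENCODE transcript. In sham animals Tyrobp had 5.18 CPM per kilobase, Fcgr3 1.81, Fcer1g 1.57 and Fcgr1 0.440. Fcgr2b has 2 principal transcripts of 3544 and 1578 bases and so had 0.480 or 1.08. At 4 dpi the same quantity was 11.9 for Tyrobp, 5.05 for Fcgr3, 3.23 for Fcer1g, 0.608 for Fcgr1, and 0.861 or 1.93 for Fcgr2b. Fcgr3 and Fcgr2b are alike over part of their transcripts, and 13.4% of the 31-base words of Fcgr3 transcripts occur in Fcgr2b transcripts, against 4.15% in the other direction. How reads from these stretches were split between both genes is uncertain. Fcgr1, Fcer1g and Tyrobp shared no such word with another gene. Fcgr2b also overlaps the antisense gene Gm38204 and Fcgr3 the microRNA gene Mir6546, and the library kit does not mark strand.

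Fcgr3, Fcer1g and Tyrobp varied together from animal to animal within groups. After subtracting group means, the log2 values of Fcer1g and Tyrobp correlated with Pearson r = 0.845 over 29 animals (adjusted permutation p = 0.000400, Spearman rho = 0.858 with adjusted permutation p = 0.000200). Fcgr3 correlated with Tyrobp (r = 0.799, adjusted permutation p = 0.00120, rho = 0.790 with adjusted permutation p = 0.00110) and with Fcer1g (r = 0.717, adjusted permutation p = 0.00215, rho = 0.714 with adjusted permutation p = 0.00190). Without the 2 animals farthest from the median of the first gene, r was 0.831, 0.783 and 0.701. Fcgr2b correlated with these 3 genes at r = 0.238 to 0.297, and Fcgr1 at r = -0.060 to 0.096, and none of these 6 relations passed the adjusted test. The relation of Fcgr1 with Fcgr2b, at r = -0.476 (adjusted permutation p = 0.0536, rho = -0.382 with adjusted permutation p = 0.154), did not pass either, and r was -0.471 without the 2 farthest animals. In all, 20 relations were tested, and genes measured in the same libraries share the errors of those libraries.

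**Figure D3:**
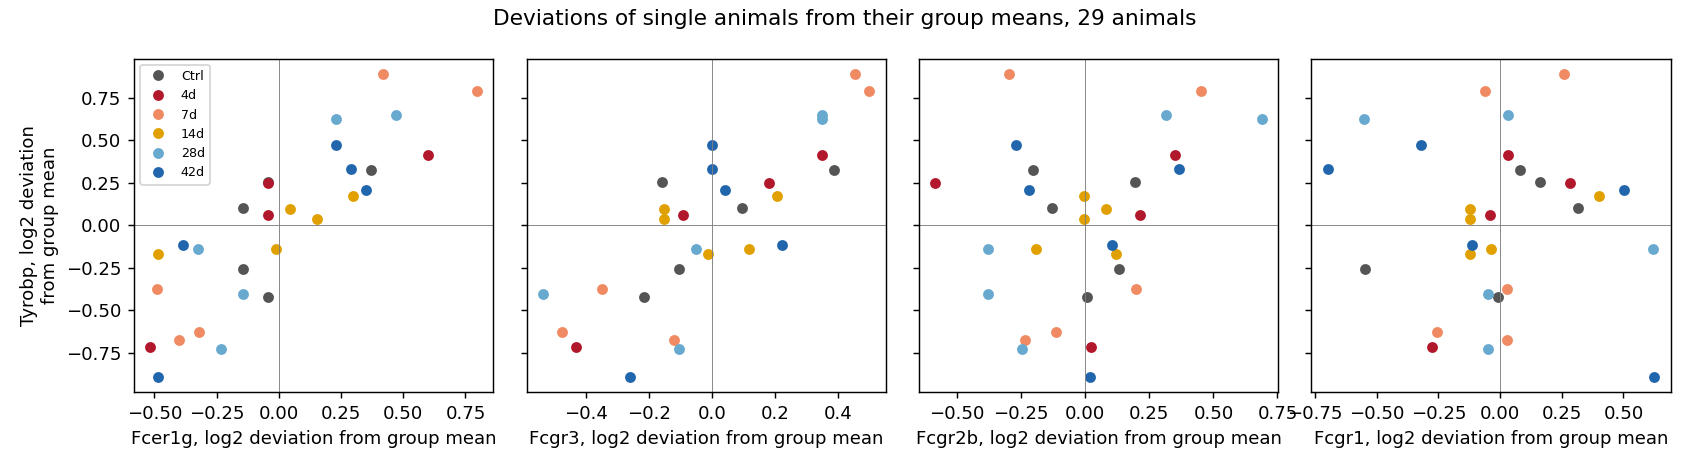
Deviation of Tyrobp from its group mean (y axis, log2) against that of Fcer1g, Fcgr3, Fcgr2b and Fcgr1 (x axes, log2) in 29 animals, coloured by group. Points for Fcer1g (r = 0.845) and Fcgr3 (r = 0.799) lie along a rising diagonal, and those for Fcgr2b (r = 0.297) and Fcgr1 (r = -0.060) scatter.

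Microglia markers were also higher at 4 dpi. Of 12 microglia markers, all were in the table and all 12 had a log2 fold change above 0 at 4 dpi, with a median of 0.41. At an unadjusted p under 0.05, 7 of the 12 were higher there, against 2.78% of all genes. Csf1r, the receptor for the microglial survival factor CSF1, rose from 30.7 ± 3.08 CPM (SD, n = 5) in sham animals to 52.2 ± 9.21 CPM (SD, n = 4) at 4 dpi (log2 fold change 0.74, adjusted p = 0.00915). Olfml3, a gene enriched in microglia, rose from 6.16 ± 0.619 CPM (SD, n = 5) to 10.8 ± 2.09 CPM (SD, n = 4), with the same adjusted p. Sall1, a transcription factor of microglial identity, had the smallest difference at 4 dpi, 0.10 (adjusted p = 1.000). The summed level of the 12 markers ran from 131 to 150.2 CPM in sham animals and from 162 to 238.7 CPM at 4 dpi. Later it ran, in order of time, from 137.3 to 201.1, from 148 to 189.4, from 133.2 to 174.9 and from 141.3 to 162.1 CPM. The 4 dpi range lay above the sham range, and the ranges at the other times overlapped it. At an unadjusted p under 0.05, 7 of the 12 markers were again higher at 14 dpi, against 3 of the 5 members and 6.25% of all genes. The median log2 fold change of the 12 markers was 0.33 there. Every animal at 14 dpi lay above the sham group for 4 of the 12 markers, against 3 of the 5 members and 1.11% of all genes. At 28 dpi 5 of the 12 markers, none of the 5 members and 18.3% of all genes were higher at an unadjusted p under 0.05.

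Within groups the mean log2 level of these markers correlated with Fcer1g (r = 0.745, adjusted permutation p = 0.00167, rho = 0.727 with adjusted permutation p = 0.00190), Tyrobp (r = 0.665, adjusted permutation p = 0.00660, rho = 0.641 with adjusted permutation p = 0.00940) and Fcgr3 (r = 0.658, adjusted permutation p = 0.00750, rho = 0.593 with adjusted permutation p = 0.0185). Without the 2 farthest animals r was 0.731, 0.593 and 0.584. For Fcgr2b (r = 0.316) and Fcgr1 (r = 0.219) the relation did not pass, with adjusted permutation p = 0.394 and 0.401. The part of microglia number in the 4 dpi values was not tested. With Rn18s-rs5 the members correlated at r = -0.418 (Fcer1g, adjusted permutation p = 0.0577) to 0.190 (Fcgr1), and none of these 5 relations passed.

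**Figure D4:**
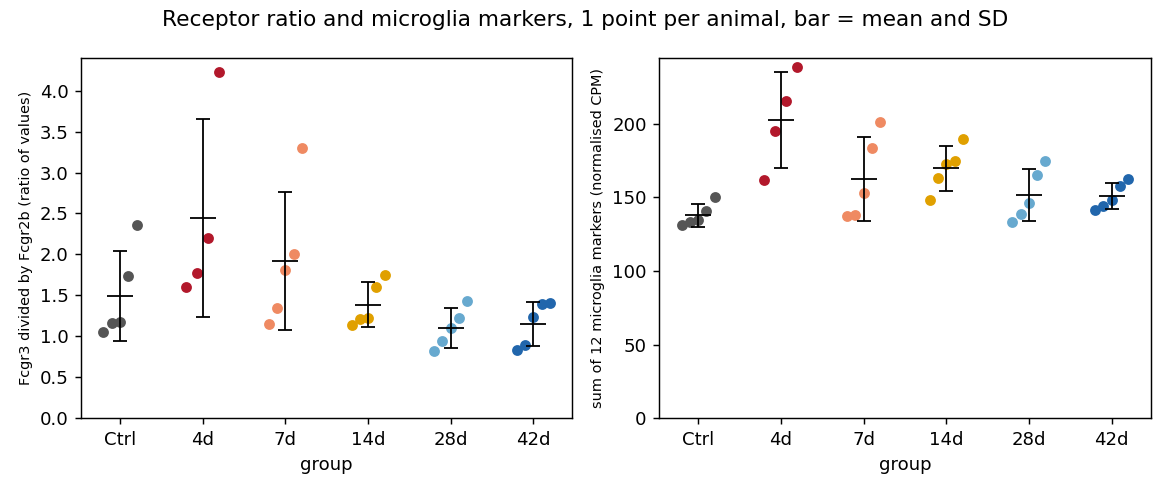
Ratio of Fcgr3 to Fcgr2b values (left, y axis) and summed normalised CPM of 12 microglia markers (right, y axis) by group (x axes), with 1 point per animal and bars for the mean and SD, both axes from 0. The marker sums at 4 dpi (162 to 238.7) lie above those of sham animals (131 to 150.2), and the ratios at 4 dpi (1.60 to 4.22) lie above those at 28 dpi (0.821 to 1.44).

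Markers of other cells that can carry Fc receptors were few in the table. Of 9 markers of perivascular or infiltrating macrophages and monocytes, 6 were in the table, and at 4 dpi 0 of the 6 were higher and 1 was lower at an unadjusted p under 0.05. Their summed level was 6.6 to 10.5 CPM in sham animals and 7.8 to 9.3 CPM at 4 dpi. Cd163, a scavenger receptor of perivascular macrophages, had 1.44 ± 0.594 CPM (SD, n = 5) in sham animals and 1.92 ± 0.150 CPM (SD, n = 4) at 4 dpi (log2 fold change 0.37, adjusted p = 1.000). Mrc1, the mannose receptor of the same cells, had a fold change of 0.17, and Ms4a7 of -0.05. None of the 6 neutrophil markers and none of the 4 mast cell markers was among the genes analysed. Of 8 markers of NK and T cells 2 were present, with sums of 2 to 2.6 CPM in sham animals and 2 to 2.4 CPM at 4 dpi. The 2 of 6 B and plasma cell markers present had sums of 1 to 1.5 CPM at both. Ms4a1, which encodes the B cell protein CD20, was called at 28 dpi, at 0.5 ± 0.2 CPM (SD, n = 5) in sham animals and 1.30 ± 0.495 CPM (SD, n = 5) at 28 dpi (adjusted p = 0.00531).

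The other tissue markers described a cord sample. All 4 markers of each of neurons, astrocytes, oligodendrocytes, endothelial cells and red blood cells were in the table. At 4 dpi the summed neuron markers ran from 1895.8 to 2201.9 CPM and lay within the sham range of 1805 to 2452.9 CPM. Gfap, the intermediate filament of reactive astrocytes, rose from 183 ± 83.2 CPM (SD, n = 5) to 399 ± 134 CPM (SD, n = 4) at 4 dpi (log2 fold change 1.18, adjusted p = 0.0480), with 3 of 4 animals above all sham animals. All 4 oligodendrocyte markers were below sham on average at 4 dpi (median log2 fold change -0.24), and 2 had an unadjusted p under 0.05. All 4 had one at 28 dpi (median -0.38) and at 42 dpi (median -0.36), below sham both times. Of all 16995 genes, 402, 3436 and 1079 were lower at that limit at 4, 28 and 42 dpi. At 4 dpi endothelial markers had a median of -0.08. Red blood cell markers had a median of -0.18 there, and their sums reached 29.2 CPM in 1 animal at 4 dpi against at most 13.9 CPM in sham animals. At 7 dpi all 4 red blood cell markers had a fold change above 0 (median 0.71), 1 of them with an unadjusted p under 0.05. The part of these markers in the members' values was not tested.

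Of the other receptors for IgG and IgE, 6 were in the table besides the 3 members, out of 14 listed. Fcgr4 and Fcer1a were not among the genes analysed. Fcrls, an Fc receptor-like gene typical of mouse microglia, was the 1 called at 4 dpi. It rose from 5.40 ± 0.632 CPM (SD, n = 5) to 12.3 ± 4.55 CPM (SD, n = 4), with all 4 animals above the sham group (log2 fold change 1.05, SE 0.203, adjusted p = 0.0223). At 28 dpi its fold change was -0.17 and at 42 dpi -0.22, neither of them called. Fcgrt, the neonatal Fc receptor that recycles IgG, had 8.66 ± 0.378 CPM (SD, n = 5) in sham animals and 9.68 ± 1.80 CPM (SD, n = 4) at 4 dpi (adjusted p = 1.000). Fcer2a, the low-affinity receptor for IgE, had the lowest log2 fold change of these receptors at 4 dpi, -0.24, with 1.10 ± 0.274 CPM (SD, n = 5) in sham animals and 0.875 ± 0.320 CPM (SD, n = 4) at 4 dpi (adjusted p = 1.000). Of 10 immunoglobulin transcripts, 2 were in the table. Ighm, the heavy chain of IgM, had 23.4 ± 4.26 CPM (SD, n = 5) in sham animals and 21.7 ± 4.69 CPM (SD, n = 4) at 4 dpi. The heavy chain genes of IgG, the ligand of these receptors, were not among the genes analysed.

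Receptors that signal through Tyrobp were mostly higher at 4 dpi before adjustment. Of 18 listed, 7 were in the table, and 6 of the 7 had a fold change above 0. Of these 7, 5 were higher at an unadjusted p under 0.05, against 2.78% of all genes, and none was called. In order of time their median log2 fold change was 0.70, 0.29, 0.27, 0.37 and 0.27. Trem2, the lipid-sensing receptor that pairs with Tyrobp, had 3.24 ± 0.541 CPM (SD, n = 5) in sham animals and 6.03 ± 1.90 CPM (SD, n = 4) at 4 dpi, with 4 of 4 animals above the sham group (log2 fold change 0.77, adjusted p = 0.275). At 14 dpi all 5 animals were again above the sham group, with a mean of 4.98 ± 0.327 CPM (SD, n = 5). Itgb2, the beta chain of the leukocyte integrins, had a fold change of 0.81 (adjusted p = 0.332) and Cd300lf of -0.11.

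Of 15 receptors that pair with Fcer1g or carry an ITAM-like tail, 2 were in the table. Clec7a, the beta-glucan receptor dectin-1, had 0.180 ± 0.130 CPM (SD, n = 5) in sham animals and 2.05 ± 1.32 CPM (SD, n = 4) at 4 dpi. All 4 animals exceeded the sham group, and the log2 fold change of 1.77 (SE 0.423, adjusted p = 0.104) was larger than that of any member. At 42 dpi Clec7a was still above the sham group in 5 of 5 animals, at 0.980 ± 0.618 CPM (SD, n = 5, adjusted p = 0.208). At such low sham values the fold change depends on the pseudocount. The other listed ITAM adaptor present, Cd3d of the T cell receptor complex, had a fold change of -0.08.

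Downstream of the ITAM, 33 of 37 kinases and signalling proteins were in the table. At 4 dpi 26 of 33 had a fold change above 0, with a median of 0.21, and none was called. At an unadjusted p under 0.05, 13 of the 33 were higher there, against 2.78% of all genes, and 0 were lower. In order of time from 7 to 42 dpi, 1, 2, 6 and 2 of the 33 were higher at that limit, where 2.22%, 6.25%, 18.3% and 8.4% of all genes were. In the same order 0, 0, 2 and 1 were lower, as were 614, 911, 3436 and 1079 of all 16995 genes. Vav1, an exchange factor for Rac, had 1.16 ± 0.251 CPM (SD, n = 5) in sham animals and 2.62 ± 0.907 CPM (SD, n = 4) at 4 dpi (log2 fold change 0.88, adjusted p = 0.113). Dock2, another Rac activator of blood cells, had 3.20 ± 0.731 CPM (SD, n = 5) and 5.92 ± 1.65 CPM (SD, n = 4), with 4 of 4 animals above the sham group (0.78, adjusted p = 0.104). Gab2, a scaffold protein, had the smallest fold change of those with a mean of at least 1 CPM, at -0.11.

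Of a list of phosphatases and inhibitory receptors with an ITIM, not all of them inhibitory, 20 of 28 were in the table. At 4 dpi 6 of 20 were higher at an unadjusted p under 0.05, with a median of 0.09, where 2.78% of all genes were. At 28 dpi 8 of 20 were, with a median of 0.38, where 18.3% of all genes were. Ptprc, the phosphatase CD45 that activates Src family kinases, had 3.24 ± 0.826 CPM (SD, n = 5) in sham animals and 6.88 ± 1.83 CPM (SD, n = 4) at 4 dpi (log2 fold change 0.97, adjusted p = 0.0540). At 28 dpi its fold change was 0.56 (adjusted p = 0.0405), short of the fold limit. Ptpn6, the phosphatase SHP-1, had a fold change of 0.74 at 4 dpi (adjusted p = 0.453), and Dok3, an adaptor of inhibitory signals, of -0.38.

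Genes of the phagocyte oxidase and the phagocytic cup, which act when an IgG-coated particle is engulfed, had a median log2 fold change of 0.45 at 4 dpi. At an unadjusted p under 0.05, 10 of 14 were higher there, against 2.78% of all genes. In order of time from 7 to 42 dpi, 1, 2, 2 and 2 were higher at that limit, against 2.22%, 6.25%, 18.3% and 8.4% of all genes. Myo1f, a myosin of myeloid cells, was called at 4 dpi. It rose from 1.38 ± 0.396 CPM (SD, n = 5) to 3.65 ± 1.28 CPM (SD, n = 4), with 4 of 4 animals above the sham group (log2 fold change 1.11, SE 0.225, adjusted p = 0.0355). Cd68, a lysosomal glycoprotein of phagocytes, had 1.38 ± 0.421 CPM (SD, n = 5) and 3.03 ± 1.47 CPM (SD, n = 4), with a fold change of 0.84 (adjusted p = 0.407). Cybb, the catalytic subunit of the oxidase, was called at 28 dpi, at 0.9 ± 0.1 CPM (SD, n = 5) in sham animals and 1.64 ± 0.321 CPM (SD, n = 5) at 28 dpi (0.60, adjusted p = 0.00773). Lamp1, a lysosomal membrane protein of all cells, had a fold change of -0.04 at 4 dpi. Of 11 transcription factors of myeloid cells, all 11 had a fold change above 0 at 4 dpi, with a median of 0.34. At an unadjusted p under 0.05, 5 of the 11 were higher there, against 2.78% of all genes. Irf8, a factor required for microglia, had 1.46 ± 0.152 CPM (SD, n = 5) and 3.48 ± 1.41 CPM (SD, n = 4) (0.96, adjusted p = 0.0540). It was above the sham group in every animal at 4 dpi (4 of 4) and at 7 dpi (5 of 5). Irf5 (0.39) and Cebpb (0.06) were not called. Some genes stand in more than 1 of these lists.

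**Figure D5:**
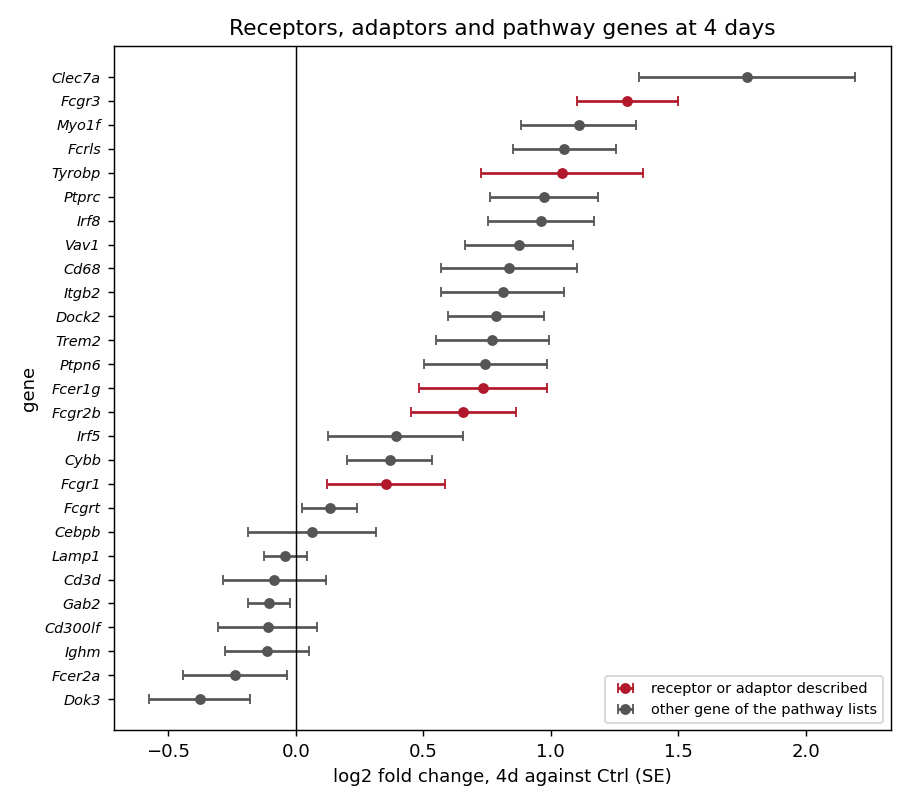
Log2 fold change at 4 dpi against sham (x axis) with SE bars for the 5 members (red) and the other pathway genes named here (grey), in order of size. Clec7a (1.77) and Fcgr3 (1.30) are at the top, Tyrobp (1.04) stands beside Fcrls (1.05), and Fcgr1 (0.35) lies below Fcgr2b (0.66).

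The genes whose log2 values followed each member most closely over all 29 animals are given as a description, since group differences and shared libraries both enter. For Fcgr3 they included C1qc (r = 0.897), Tmem176a (0.890), Ly86 (0.871) and Ctsd (0.861). For Tyrobp they were C1qc (0.896), C1qb (0.894), C1qa (0.889), Ctsd (0.867) and Fcer1g (0.861). For Fcer1g they were Ctss (0.877), C1qa (0.862), Tyrobp (0.861), C1qc (0.856) and C1qb (0.849). The C1q genes encode the starter of the classical complement pathway, and Ctsd and Ctss encode lysosomal proteases. Fcgr2b had other nearest genes and lower correlations, namely C3ar1 (0.724), Slc14a1 (0.697), C4b (0.693), Casp12 (0.692) and Slfn8 (0.667). C3ar1 is the receptor for the complement fragment C3a, and C4b encodes complement component C4. For Fcgr1 the list was Plcb2 (0.610), Gm20458 (0.595), Kcna6 (0.583), B3gntl1 (0.579) and Syk (0.573). The genes with the highest mean correlation over the 5 members included C1qc (0.682), C1qa (0.659), Ctss (0.646) and Cd53 (0.634). Among 15497 genes compared, Tyrobp was the seventh nearest to Fcgr3, while Fcgr2b stood at place 1779 for Fcgr3 and Fcgr1 at place 4279.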

How the data were processed

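RNA from the cervical intermediate laminae was measured in 29 animals of 6 groups, taken from the sample labels; the paper identifies Ctrl as sham-operated. The deposited score values are normalised CPM: the authors quantified reads on mm10 with SALMON, summarised them per gene with Tximport, normalised them with edgeR (edgeR 3.14.0 and R 3.4.1 per the labels), removed genes with low expression and rounded the values to 0.1. They are not counts, their sum differed between animals (714597 to 2256910), and depth is unknown, so the spread between animals is the measure of precision. The table's columns with the authors' own fold changes and p-values were not used.

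Values were analysed as log2(value + 0.5) with limma 3.58.1 in R 4.3.3 (1 mean per group, a trend on the mean value) and Benjamini-Hochberg adjustment over 16995 genes. Calls needed both an adjusted p below 0.05 and a change of more than 1.5-fold. Single genes were compared with exact two-sided permutation tests, and within-group relations with 100000 permutations. The method was tested on simulated data. Genes named are the members; of each list every gene called and the 2 largest and the smallest fold changes at 4 dpi among genes with a mean of at least 1 CPM, not all of which are printed for the markers of other cell types; and the 5 nearest genes, of which 1 is not reported here. Members and lists were chosen with earlier results of these data known. Overlaps, lengths and shared words of 31 bases came from GENCODE M21, promoters from RefSeq. Alternatives are given in the closing section.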

Additional observations from a re-analysis of the deposited data

Results flagged for a closer look

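Of the 30 groups of values (5 genes in 6 groups), 2 held an animal far from the others by Dixon's limit at 95%, and chance alone gives about 1 in 20. The highest Fcgr1 value at 14 dpi was 1.8 CPM, against 1.1 to 1.2 CPM in the other 4 animals. The highest Fcer1g value in sham animals was 1.5 CPM, against 0.9 to 1.0 CPM in the other 4. Differences from sham also differed between time points. The log2 difference between 28 and 4 dpi was -1.30 for Fcgr3 (adjusted p = 0.00140) and -1.06 for Tyrobp (adjusted p = 0.0226), and between 42 and 4 dpi it was -0.99 for Fcgr3 (adjusted p = 0.0225), all from the limma fit. All 3 calls were lost with Rn18s-rs5 as a covariate (adjusted p = 0.105, 0.276 and 0.275), and the last 2 also without single animals.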

How the results depend on the processing

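The call of Fcgr3 at 4 dpi was made under all 13 other settings and after leaving out each of 29 animals, with a log2 fold change of 1.17 to 1.44 and an adjusted p of at most 0.0461. No member was called at 7, 14 or 42 dpi under any setting run. Rescaling all animals to the same sum moved the median of all genes to -0.48 at 14 dpi, -0.73 at 28 dpi and -0.52 at 42 dpi, and the values under it are read relative to that. It gave 2 calls at 28 dpi, 5 at 28 against 4 dpi, 2 at 42 against 4 dpi and 3 by the F test, 4 in place of 10 exact tests under 0.05, and 17 in place of 6 relations.

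Between 28 and 14 dpi 1 member was called with a pseudocount of 0.1, with no fold limit or at an adjusted p under 0.1, and 3 with quantile normalization. Between 28 and 4 dpi, a comparison chosen after seeing the data as was that of 42 and 4 dpi, the count was 1 with only the 2 groups compared and 0 with Rn18s-rs5 as a covariate, which also gave 0 between 42 and 4 dpi, at log2 differences of -1.16 (Fcgr3) and -0.84 (Tyrobp) at 28 dpi and -0.87 (Fcgr3) at 42 dpi. The F test called 2 with a pseudocount of 1 or median centring, 3 with quantile normalization, 3 with the replicate block and 4 at an adjusted p under 0.1. The block was the unit number in the labels, whose estimated correlation was -0.044, and it changed no other count. Apart from unit 3, which held animals at 28 and 42 dpi, each unit lay within a single group. The block therefore cannot separate a unit from its time point. Leaving out 1 animal gave 0 to 2 calls between 28 and 14 dpi, 1 to 2 between 28 and 4 dpi, 0 to 1 between 42 and 4 dpi, 1 to 3 by the F test, 6 to 12 exact tests under 0.05 and 6 to 8 relations.

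Among the differences listed, signs changed only for those from sham that the report does not call. With the same sum, Fcgr1 was at -0.22 at 14 dpi, -0.42 at 28 dpi and -0.39 at 42 dpi, Fcgr2b at -0.28 at 28 dpi, Fcgr3 at -0.63 at 28 dpi and -0.15 at 42 dpi, Fcer1g at -0.24 at 28 dpi and -0.030 at 42 dpi, and Tyrobp at -0.24 at 42 dpi. At 28 dpi Fcgr1 was at -0.071 with quantile normalization and -0.023 with the covariate, Fcgr3 at -0.00407 with a pseudocount of 0.1, -0.16 with quantile normalization and -0.00990 with the replicate block, and Tyrobp at 0.013 with median centring and 0.19 with the covariate. At 42 dpi Fcgr1 was at -0.00911 with a pseudocount of 0.1, -0.068 with quantile normalization, -0.00979 with the replicate block and -0.12 with the covariate. Without 1 animal Fcgr1 ran from -0.084 to 0.13 at 7 dpi, -0.023 to 0.19 at 14 dpi, -0.025 to 0.27 at 28 dpi and -0.14 to 0.19 at 42 dpi, Fcgr3 from -0.087 to 0.14 and Tyrobp from -0.18 to 0.16 at 28 dpi. The cause was not tested. The rounding step of 0.1 CPM is largest relative to the values of Fcgr1 and Fcer1g, the members with the lowest means over all animals, and depth is unknown.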

Other observations

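The number of members above all 5 sham animals was also counted in each stroke animal, beside the share of all 16995 genes that lay above all sham animals in the same animal. At 4 dpi it was 5 in animal A10-4, 4 in A10-1 and A9-4 and 2 in A9-2, and the shares of all genes ran from 16.3% to 19.2%. At 7 dpi it ran from 0 in A7-4 to 4 in A7-3 (15.4% to 16.9% of all genes). At 14 dpi it was 5 in 1 animal, 4 in 3 and 3 in 1 (14.1% to 20.6%). At 28 dpi it ran from 0 to 3 (19.5% to 31.5%) and at 42 dpi from 2 to 4 (17.3% to 25.1%). The microglia marker sum of A9-2 (162 CPM) was the lowest of its group, and that of A10-4 (238.7 CPM) the highest of all 29 animals. Fcgr2b was the member above the sham group in all 5 animals at both 14 and 42 dpi.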
